A study of Mus musculus with 12 samples.

Results

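The genes described here are the EGF receptor Egfr, its partner receptors Erbb2 and Erbb3, and 6 ligands that the epidermis uses, Areg, Ereg, Hbegf, Tgfa, Epgn and Btc. They were taken by symbol from a table of 55453 genes, and all 9 were among the 18311 genes with enough counts to be tested. Skin came from 12 C57BL/6 mice, 3 in each group. Wild-type (WT) or Thy-1–KO mice, which carry a whole-body knockout, received subcutaneous injections at 2 dorsal spots of either PBS (WT PBS, KO PBS) or bleomycin at 10 mg/kg per day (WT BLM, KO BLM). The methods describe the KO mice as females aged 8 to 12 weeks, the WT mice as C57BL/6J and the controls as littermates. Daily injections went on for at most 14 days, and skin was taken on day 21. Bleomycin is a drug that injures skin and leaves it fibrotic, and the question was how skin of each genotype responded to it. Values are CPM, read counts scaled to a common library size, and groups were compared by edgeR's quasi-likelihood test with Benjamini-Hochberg adjustment over all genes tested and a threshold of 0.05. The labels give each mouse its own number, which names it below. Bulk skin cannot tell fewer cells of a type apart from less RNA per cell.

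Totals per mouse ran from 26473700 to 38890450 counts. Krt5, a keratin of the basal epidermis, was at 2487 to 6458 CPM in every mouse. Thy1 was below the WT mice of the same treatment in every KO mouse (45.6 to 96.9 against 104 to 149.6 CPM under PBS, and 84.7 to 128 against 231 to 416 CPM under bleomycin) but was not at 0, and a count over the whole gene does not show which part of it was deleted. The libraries also differed in hair growth. The mean log2 CPM of 30 growing hair genes, of the shaft and its sheath, was 8.80 to 9.43 in WT PBS mice, 9.35 in mouse 136 of KO PBS and 8.31 in mouse 141 of KO BLM. It was 4.35 and 5.30 in the other KO BLM mice, 1.85 and -0.74 in the other KO PBS mice and -0.48 to 2.88 in WT BLM mice. Krt25, a keratin of the inner root sheath, stood at 7969 CPM in mouse 136 and at 0.14 and 19.7 CPM in the other KO PBS mice. Results that rest on mice 136 and 141 are given with and without them.

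EGF receptor ligands are made as membrane proteins and are cut loose by ADAM proteases, after which they bind the receptor and make it pair with itself or with a relative. ErbB2 has no known ligand and acts as a partner, and ErbB3 has little kinase activity of its own and recruits PI3 kinase once its partner has phosphorylated it. In the skin this system drives keratinocyte growth and migration and shapes the hair follicle, and mice with defects of Egfr or Tgfa have wavy hair and whiskers. Areg (amphiregulin) and Epgn (epigen) are ligands of low affinity, whereas Tgfa, Hbegf (heparin-binding EGF-like growth factor) and Btc (betacellulin) bind tightly. Ereg (epiregulin) and Btc can also act through ErbB4, as can Hbegf.

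In the GRCm38 annotation, Egfr lies on chromosome 11 (16752203 to 16918158, plus strand) and Erbb2 on the same chromosome (98412470 to 98437716, plus strand). Erbb3 is on chromosome 10 (128567523 to 128589652, minus strand) and Tgfa on chromosome 6 (86195223 to 86275719, plus strand). Of the 6 ligands, 4 (Epgn, Ereg, Areg and Btc) lie within 376 kb of chromosome 5 (91027464 to 91402994) with 0 other protein-coding genes between them. Promoter sequence before the start was found for 6 of the 9 genes in RefSeq (GRCm38.p6), and it is shown for the ligands Areg and Epgn, whose levels ran together across the mice, and for Egfr and Tgfa, which fell after bleomycin in WT skin. All 4 are on the plus strand and end just before the start, at chr5:91139349-91139598 for Areg, chr5:91027267-91027463 for Epgn, chr11:16751953-16752202 for Egfr and chr6:86194972-86195221 for Tgfa. Capitals mark matches on either strand to any of 8 short motifs searched.
Areg: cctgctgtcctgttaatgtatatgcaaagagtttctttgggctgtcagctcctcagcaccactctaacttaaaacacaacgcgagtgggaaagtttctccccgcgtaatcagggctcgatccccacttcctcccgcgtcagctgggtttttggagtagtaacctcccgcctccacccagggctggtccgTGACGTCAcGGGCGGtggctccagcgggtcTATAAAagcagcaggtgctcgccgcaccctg
Epgn: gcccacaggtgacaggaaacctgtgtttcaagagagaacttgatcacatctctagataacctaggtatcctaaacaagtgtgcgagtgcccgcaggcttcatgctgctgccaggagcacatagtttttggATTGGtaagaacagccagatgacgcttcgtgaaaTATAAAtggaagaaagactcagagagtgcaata
Egfr: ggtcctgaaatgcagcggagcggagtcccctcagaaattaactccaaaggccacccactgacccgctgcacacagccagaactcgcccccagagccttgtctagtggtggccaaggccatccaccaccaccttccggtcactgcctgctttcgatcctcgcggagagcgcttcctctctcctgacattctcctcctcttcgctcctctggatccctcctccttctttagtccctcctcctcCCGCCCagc
Tgfa: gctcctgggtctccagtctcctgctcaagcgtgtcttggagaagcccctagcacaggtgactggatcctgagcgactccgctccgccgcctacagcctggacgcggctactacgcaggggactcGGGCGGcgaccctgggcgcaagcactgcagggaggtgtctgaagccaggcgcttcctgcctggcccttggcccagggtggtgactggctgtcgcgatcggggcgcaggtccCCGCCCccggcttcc

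Areg had a cAMP response element (TGACGTCA) 61 bases before the start, a GC box (GGGCGG) at 52 bases and a TATA box (TATAAA) at 31 bases. Epgn, with a window of 197 bases, had a TATA box at 33 bases and a CCAAT box (CCAAT) at 67 bases. Egfr and Tgfa had only GC boxes, at 9 bases in Egfr and at 126 and 15 bases in Tgfa. Of 32851 windows of 250 bases before mouse gene starts, 1.55% held the cAMP response element, 12.4% the TATA box, 32.7% the GC box and 33.8% the CCAAT box. None of the 4 windows held the AP-1 letters TGANTCA, the E-box CACGTG, the TCF/LEF letters CTTTGAT or the GAS letters TTCNNNGAA, which occurred in 6.75%, 6.02%, 3.21% and 7.02% of all windows. No motif in these windows overlapped another, and a match of letters does not show that a factor was bound.

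In the WT skin given PBS the receptors stood above most of the ligands. Per kilobase of exon, Erbb2 was at 41.0 to 43.7 CPM per kb in the WT PBS mice, Erbb3 at 36.1 to 38.9, Tgfa at 20.3 to 26.3 and Egfr at 15.6 to 19.3, and none of these ranges overlapped. Areg followed at 7.55 to 9.41 CPM per kb. Epgn (3.22 to 5.30), Ereg (2.79 to 4.47), Hbegf (2.42 to 3.86) and Btc (2.28 to 2.98) came last, and each of these ranges overlapped the next. The spread between mice, as the biological coefficient of variation within groups, was 23.1% for Erbb2, 23.4% for Erbb3 and 24.5% for Egfr. It was larger for each ligand, from 34.9% for Ereg to 58.1% for Areg.

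**Figure D1:**
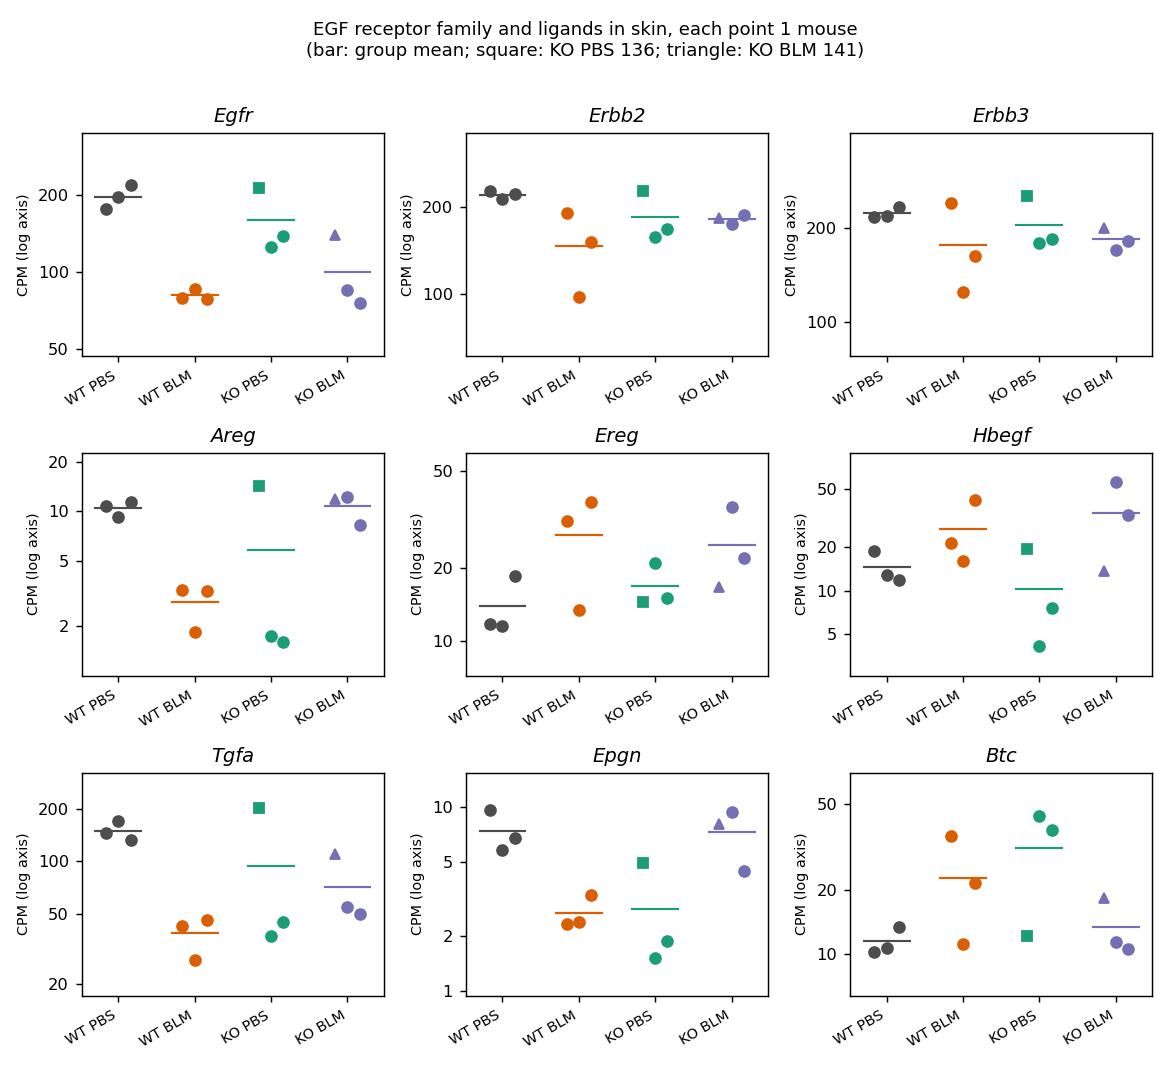
CPM of each of the 9 genes (vertical log axes) in the 4 groups, with 1 point per mouse and a bar at the group mean (n = 3); the square is mouse 136 of KO PBS and the triangle mouse 141 of KO BLM. Egfr, Tgfa, Areg and Epgn were lower in all WT BLM mice than in all WT PBS mice, and mouse 136 stood at 14.2 CPM of Areg against 1.74 and 1.61 CPM in the other KO PBS mice.

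Egfr and the ligands Tgfa and Epgn were lower in WT skin given bleomycin than in WT skin given PBS. They were the 3 of 9 genes that passed the test, all lower, where 14.1% of all genes tested passed lower, 19.8% higher and 34% in either direction. Egfr, the receptor itself, was at 176, 196 and 218 CPM in the WT PBS mice and at 79.0, 86.3 and 78.5 CPM in the WT BLM mice. The groups were far apart, and the level fell by 1.28 on the log2 scale (SE 0.25, 2.43-fold lower, adjusted p = 0.00764 by edgeR). Leaving out any one of the 12 mice kept this call, with a log2 fold change of -1.36 to -1.20.

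The partner receptors moved less. Erbb2 was at 227, 214 and 223 CPM in WT PBS and at 191, 97.1 and 151 CPM in WT BLM mice, with no overlap, but the log2 fold change of -0.59 (SE 0.22) did not pass (adjusted p = 0.0596 by edgeR). Erbb3, the receptor that engages PI3 kinase, was at 217, 219 and 234 CPM and at 242, 125 and 163 CPM, so the groups overlapped (log2 fold change -0.34, SE 0.22, adjusted p = 0.251 by edgeR). Mouse 146 was the lowest WT BLM mouse for both, and it also had the lowest summed basal keratinocyte markers of that group (6857 CPM over 10 genes, against 14438 and 14539) and the highest Schwann cell markers (538 CPM over 8 genes, against 174 and 219). With the basal keratinocyte list as a covariate Erbb2 passed (-0.78, adjusted p = 0.0370 by edgeR) and Erbb3 did not, where 21.4% of all genes passed. The part of the Schwann cell markers in the result was not tested. Without mouse 145, the highest of the group, both passed (Erbb2 -0.83, adjusted p = 0.0272, and Erbb3 -0.63, adjusted p = 0.0430 by edgeR), and without mouse 146 both were smaller (Erbb2 -0.37, adjusted p = 0.141, and Erbb3 -0.14, adjusted p = 0.625 by edgeR). Erbb2 also passed in DESeq2 (adjusted p = 0.0343) and without mouse 136 in edgeR (adjusted p = 0.0330). Mien1 overlaps Erbb2 on the opposite strand with 14376 counts over the 12 mice, and whether the counting used strand is not given in the sources used here.

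Among the ligands, Tgfa was the most abundant in WT skin given PBS. Its log2 fold change was the largest of the 6 but within the error of that of Areg (-1.89, SE 0.72). Tgfa was at 144, 171 and 132 CPM in WT PBS and 42.6, 27.3 and 46.1 CPM in WT BLM mice, without overlap, and fell by 1.94 on the log2 scale (SE 0.59, 3.85-fold lower, adjusted p = 0.0315 by edgeR). Epgn went from 9.57, 5.82 and 6.75 CPM to 2.31, 2.38 and 3.31 CPM and fell by 1.47 (SE 0.45, 2.76-fold lower, adjusted p = 0.0328 by edgeR). Both calls were close to the threshold and were lost when any one of the 6 WT mice was left out, with adjusted p of 0.0566 to 0.0934 for Tgfa and 0.0529 to 0.0926 for Epgn by edgeR. In those fits the log2 fold changes were -2.09 to -1.75 for Tgfa and -1.68 to -1.24 for Epgn. The share of all genes passing was then 13.9% to 21.5%, against 34% with all 12 mice.

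Areg was at 10.7, 9.18 and 11.4 CPM in WT PBS mice and at 3.33, 1.86 and 3.28 CPM in WT BLM mice. The groups did not overlap and the log2 fold change was -1.89, but with an SE of 0.72 it missed the threshold (adjusted p = 0.0630 by edgeR). The KO PBS mice, which share the model, had an SD of 7.21 CPM in Areg against 0.835 to 2.13 CPM in the other groups. Areg passed in a model of the WT groups alone (adjusted p = 0.00165 by edgeR), and it passed without mouse 136 (adjusted p = 0.000406), 137 (0.0387) or 139 (0.0385) in edgeR. In all, 5 of 9 genes (Egfr, Erbb2, Areg, Tgfa and Epgn) were lower in every WT BLM mouse than in every WT PBS mouse, where 28.7% of all genes tested were. Without mouse 136 all 5 passed, where 45.7% of all genes did, and without mice 136 and 141 Btc passed too (0.98, adjusted p = 0.0403 by edgeR), where 49% did.

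The other 3 ligands had higher means after bleomycin in WT skin, and none passed. Ereg, which keratinocytes make in inflamed skin, was at 11.7, 11.5 and 18.4 CPM in WT PBS and at 31.2, 13.4 and 37.2 CPM in WT BLM mice (log2 fold change 0.97, SE 0.39, adjusted p = 0.0752 by edgeR). It passed without mouse 146, the lowest of the WT BLM group, at an adjusted p of 0.0293 by edgeR. Hbegf, a ligand made at wound edges whose gene is on chromosome 18 (36504927 to 36515805, minus strand), was at 18.7, 12.8 and 11.7 CPM and at 21.2, 15.9 and 41.9 CPM (0.87, SE 0.61, adjusted p = 0.280 by edgeR). Btc was at 10.3, 10.7 and 13.5 CPM and at 35.6, 11.2 and 21.4 CPM (0.98, SE 0.49, adjusted p = 0.135 by edgeR). In each of these genes at least 1 WT BLM mouse lay within the range of the WT PBS mice.

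The hair list moved with this comparison. Of its 30 genes tested, 20 fell and 0 rose, and its summed level was 51922 to 75379 CPM in WT PBS and 101 to 905 CPM in WT BLM mice, where 3 of its genes were at 0 in mouse 145 and 3 in mouse 147. Of 10 proliferation genes 9 fell, from sums of 854 to 951 CPM to 300 to 384 CPM. Of 10 basal keratinocyte genes 4 rose and 1 fell. With the mean of the hair list as a covariate, 0 of 9 genes passed, where 0.0655% of all genes tested did. In that fit Egfr had a log2 fold change of -0.52 (adjusted p = 0.523), Epgn of -0.41 (0.907) and Tgfa of -0.01 (0.998) by edgeR. With the basal keratinocyte list as the covariate, Tgfa (-1.66, adjusted p = 0.127) and Epgn (-1.26, adjusted p = 0.102) no longer passed and Erbb2 did (-0.78, adjusted p = 0.0370) by edgeR. In WT mice hair growth and treatment cannot be told apart, because every WT PBS mouse and no WT BLM mouse had high hair genes.

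**Figure D2:**
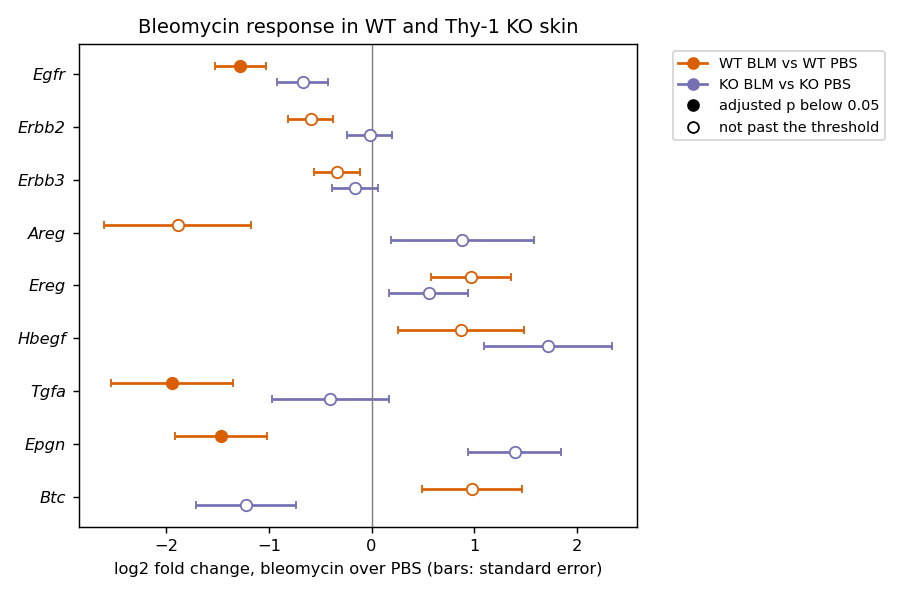
Log2 fold change of bleomycin over PBS (horizontal axis, bars are standard errors) for each gene in WT (orange) and KO (purple) mice, with filled points where the adjusted p was below 0.05. Egfr, Tgfa and Epgn are filled in WT, no gene is filled in KO, and Areg, Epgn and Btc have opposite signs in the genotypes.

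In KO skin 0 of 9 genes passed, with 0.306% of all genes tested passing and 4 of the 9 (and 3665 of the 18311 genes) at an unadjusted p under 0.05. In DESeq2 1 of the 9 (Epgn) passed, where 3.49% of 34689 genes did. None of the 9 separated the groups, which 19.3% of all genes did. Egfr was at 213, 125 and 138 CPM in KO PBS mice 136, 137 and 139 and at 139, 85.3 and 75.5 CPM in KO BLM mice 141, 143 and 144 (log2 fold change -0.67, SE 0.25, adjusted p = 0.181 by edgeR). The highest mouse of each group was also the highest in the hair list. Without mouse 136 the difference was -0.40 (adjusted p = 0.233 by edgeR). Without mouse 141 it was -0.98 and passed (adjusted p = 0.0322 by edgeR), and it passed with the hair list as a covariate at -0.89 (adjusted p = 0.0134 by edgeR).

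Areg and Epgn split the KO PBS mice the same way. Areg was at 14.2 CPM in mouse 136 and at 1.74 and 1.61 CPM in mice 137 and 139, against 11.8, 12.2 and 8.31 CPM in the KO BLM mice. Epgn was at 4.95, 1.51 and 1.88 CPM, against 8.02, 9.40 and 4.45 CPM. Tgfa was at 201, 37.4 and 45.0 CPM and at 110.5, 54.5 and 49.7 CPM, so mouse 136 was the highest and the other KO PBS mice the lowest. The log2 fold changes were 0.89 for Areg (SE 0.69, adjusted p = 0.486), 1.39 for Epgn (SE 0.45, adjusted p = 0.159) and -0.40 for Tgfa (SE 0.57, adjusted p = 0.715) by edgeR.

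Hbegf was at 19.1, 4.17 and 7.54 CPM in KO PBS and at 13.5, 55.1 and 32.8 CPM in KO BLM mice, a log2 fold change of 1.72 (SE 0.62, adjusted p = 0.176 by edgeR). Mice 143 and 144, the KO BLM mice high in Hbegf, also had summed neutrophil markers of 258 and 299 CPM over 9 genes, against 20.5 CPM in mouse 141 and 10.2 to 24.5 CPM in KO PBS mice, with 2 markers at 0 in mouse 143 and 1 in mouse 144. Of these sums, S100a8, which injured keratinocytes also make, gave 88.5 and 103 CPM. The mean log2 CPM of 9 wound keratinocyte genes also set these mice apart. It was 8.66 and 9.15 in mice 143 and 144, 5.96 in mouse 141 and 3.71 to 6.85 in KO PBS mice. The summed CPM of those genes overlapped (1321 to 8435 in KO PBS and 4929 to 9138 in KO BLM mice). The part of either list in the result was not tested. Btc was at 12.2, 43.8 and 38.1 CPM and at 18.2, 11.4 and 10.6 CPM (-1.22, SE 0.49, adjusted p = 0.205 by edgeR), with mouse 136 inside the KO BLM range. Ereg (14.5, 20.9 and 15.02 against 16.6, 35.7 and 21.9 CPM), Erbb2 (227, 158 and 169 against 183, 176 and 188 CPM) and Erbb3 (253, 179 and 184 against 201, 170 and 181 CPM) overlapped throughout, with adjusted p of 0.434, 0.970 and 0.711 by edgeR.

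Without mouse 136, 4 of 9 genes passed in KO skin, where 14% of all genes then did. Areg rose by 2.68 on the log2 scale (adjusted p = 0.00577), Hbegf by 2.53 (adjusted p = 0.0306) and Epgn by 2.10 (adjusted p = 0.0121), while Btc fell by 1.61 (adjusted p = 0.0309) in edgeR. Tgfa turned from -0.40 to 0.80 (adjusted p = 0.138 by edgeR). Without mice 136 and 141, Egfr joined these at -0.71 (adjusted p = 0.0115 by edgeR) and 22.3% of all genes passed. In both fits every KO PBS mouse left was below every KO BLM mouse in the hair list (-0.74 and 1.85 against 4.35 or more). Treatment and hair growth cannot be told apart in these fits.

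Between the genotypes under PBS, 0 of 9 genes passed, with 0.0655% of all genes tested passing and 2 of the 9 (Epgn and Btc, and 3727 of the 18311 genes) at an unadjusted p under 0.05. In DESeq2 1 of the 9 (Epgn) passed, where 2.18% of 34689 genes did. Epgn was the only one of the 9 whose groups did not overlap, lower in every KO PBS mouse (log2 fold change -1.41, SE 0.45, adjusted p = 0.204 by edgeR), which 10.3% of all genes were. Btc had a log2 fold change of 1.45 (SE 0.49, adjusted p = 0.206 by edgeR), with mouse 136 at the WT level and the other KO PBS mice at 43.8 and 38.1 CPM, above the 10.3 to 13.5 CPM of the WT PBS mice. Without mouse 136, Areg (-2.64, adjusted p = 0.000944), Epgn (-2.12, 0.00287), Tgfa (-1.85, 0.00450) and Btc (1.83, 0.00722) passed in edgeR, with 36.7% of all genes passing. Without it every KO PBS mouse was far below every WT PBS mouse in the hair list (-0.74 and 1.85 against 8.80 to 9.43), so genotype and hair growth cannot be told apart there. With all 12 mice and the hair list as a covariate, the adjusted p was 0.998 for each of these 4 genes by edgeR. Without mice 136 and 141, Egfr (-0.58, adjusted p = 0.00554) and Hbegf (-1.30, adjusted p = 0.049995) passed as well in edgeR, with 40.9% of all genes passing.

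After bleomycin, 0 of 9 genes passed between the genotypes, with 0.0928% of all genes tested passing and 2 of the 9 (Areg and Epgn, and 3043 of the 18311 genes) at an unadjusted p under 0.05. In DESeq2 1 of the 9 (Epgn) passed, where 1.77% of 34689 genes did. Areg, Epgn and Tgfa were higher in every KO BLM mouse than in every WT BLM mouse, which 14.7% of all genes were. The log2 fold changes were 1.93 for Areg (SE 0.72, adjusted p = 0.264), 1.45 for Epgn (SE 0.45, adjusted p = 0.235) and 0.89 for Tgfa (SE 0.58, adjusted p = 0.430) by edgeR. The 3 KO BLM mice were also above every WT BLM mouse in the hair list (3853 to 39805 against 101 to 905 CPM) and in summed proliferation genes (526 to 747 against 300 to 384 CPM). With the hair list as a covariate the log2 fold changes were 0.57 for Areg (adjusted p = 0.705), 0.78 for Epgn (0.477) and -0.46 for Tgfa (0.666) by edgeR. In that fit 0.169% of all genes passed. The part of the proliferation genes in the result was not tested. Without mouse 136, Areg (adjusted p = 0.0119) and Epgn (adjusted p = 0.0315) passed in edgeR, and without mice 136 and 141 only Areg did (1.86, adjusted p = 0.0205 by edgeR), with 6.89% and 4.36% of all genes passing. Mouse 136 belongs to neither of these groups. Without it the log2 fold changes were again 1.93 for Areg and 1.45 for Epgn, so the calls changed through the shared model.

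The difference between the bleomycin responses of KO and WT skin was tested directly, and in edgeR it passed for 0 of 9 genes and 0% of all genes tested, of which 5687 had an unadjusted p under 0.05. In DESeq2 it passed for Epgn (2.87, adjusted p = 0.000664) and Btc (-2.22, adjusted p = 0.0176), where 9.45% of 34689 genes passed. The KO response minus the WT response was 2.86 for Epgn (SE 0.64, adjusted p = 0.0702), 2.77 for Areg (SE 0.99, adjusted p = 0.106) and -2.20 for Btc (SE 0.69, adjusted p = 0.0874) by edgeR. It was 1.54 for Tgfa (SE 0.81, adjusted p = 0.211) and 0.61 for Egfr (SE 0.35, adjusted p = 0.246), both by edgeR. With the hair list as a covariate it was 1.68 for Epgn (adjusted p = 0.673), 0.71 for Areg (0.849), -0.12 for Btc (0.978), -0.60 for Tgfa (0.824) and -0.37 for Egfr (0.792) by edgeR. Without mouse 136, Areg (4.57, adjusted p = 0.000364), Epgn (3.57, 0.000730), Tgfa (2.75, 0.00191), Btc (-2.58, 0.00492) and Egfr (0.88, 0.0427) passed in edgeR, where 39.9% of all genes did. Without mice 136 and 141 these 5 and Hbegf (2.04, adjusted p = 0.0305 by edgeR) passed, where 38.6% did. Without mouse 136, treatment and hair growth cannot be told apart in either genotype, so neither can they in the difference of responses. This difference uses the same PBS mice as the responses above, so its values are not separate evidence.

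**Figure D3:**
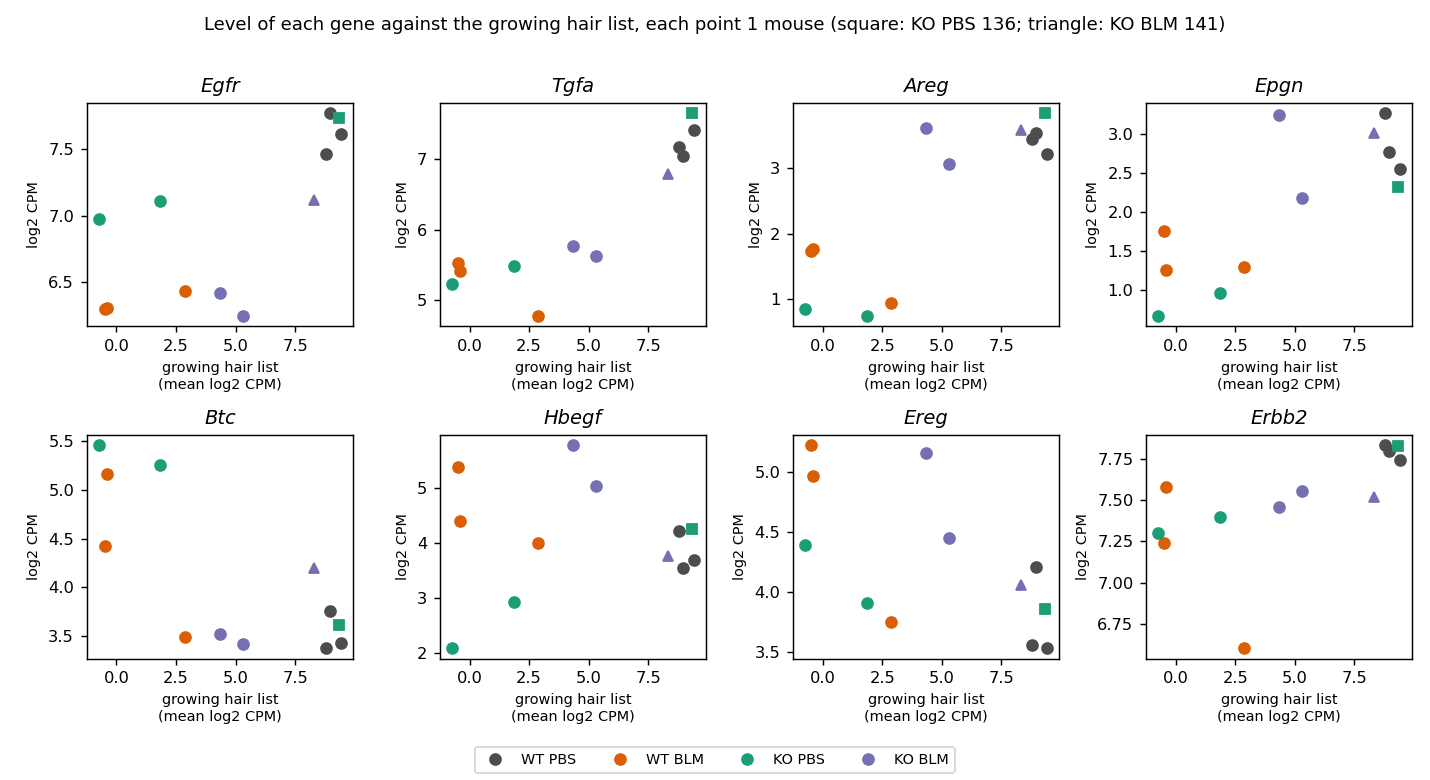
Log2 CPM of 8 of the genes (vertical axes) against the mean log2 CPM of the growing hair list (horizontal axes), 1 point per mouse, coloured by group. The 5 mice highest in the hair list are also the 5 highest in Tgfa, at 6.79 or above, with the other 7 mice at 5.77 or below, whereas Areg is also high in the KO BLM mice with intermediate hair levels.

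The 5 mice highest in the hair list, the WT PBS mice and mice 136 and 141, were also the 5 highest in Tgfa (110.5 to 201 CPM) and in Egfr (139 to 218 CPM). The other 7 mice had 27.3 to 54.5 CPM of Tgfa and 75.5 to 138 CPM of Egfr. Areg and Epgn did not keep this order, and were also high in KO BLM mice 143 and 144, at 12.2 and 8.31 CPM for Areg and 9.40 and 4.45 CPM for Epgn, where the hair list was at 4.35 and 5.30.

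**Figure D4:**
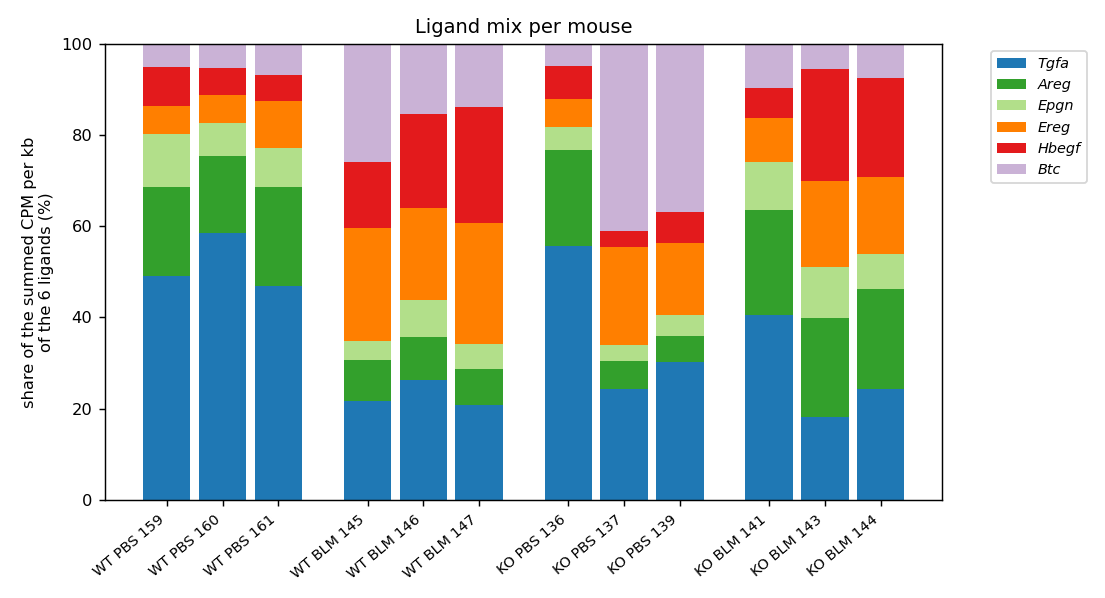
Share of each ligand in the summed CPM per kb of the 6 ligands (vertical axis, percent), 1 bar per mouse. Tgfa makes up 40.5% or more in the WT PBS mice and mice 136 and 141 and 30.3% or less in the other 7, and Btc is the largest share in WT BLM mouse 145 and KO PBS mice 137 and 139.

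The ligands were also set out as shares of their sum. A fall in Tgfa raises the other shares with no change in their own levels, so the shares are not separate evidence. Per kilobase, Tgfa made up 46.9 to 58.6% of the 6 ligands in WT PBS mice and 20.9 to 26.2% in WT BLM mice. Areg made up 16.8 to 21.7% and 7.93 to 9.51%, and Epgn 7.18 to 11.7% and 4.20 to 8.19%. Ereg made up 6.21 to 10.3% and 20.2 to 26.5%, Hbegf 5.60 to 8.51% and 14.4 to 25.4%, and Btc 5.03 to 6.87% and 13.9 to 25.9%. Btc was the largest share in WT BLM mouse 145 (25.9%) and in KO PBS mice 137 and 139 (40.9 and 36.8%), and in mouse 136 it was 4.86%. Areg was at 21.7 to 23.1% in the KO BLM mice and at 21.0% in mouse 136 and 6.06 and 5.78% in the other KO PBS mice, and Hbegf took 6.66% in mouse 141 and 24.7 and 21.6% in mice 143 and 144. These shares were not tested.

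Beyond the 9 genes, 80 further genes of the pathway were listed by role, and 78 of them were tested. In WT skin 13 rose and 15 fell after bleomycin, a median log2 fold change of -0.17 against 0.02 over all genes tested. These 28 of 78 genes are close to the 34% of all genes that passed there. In each of the other 4 comparisons 0 passed in edgeR. Without mouse 136 the count in WT skin was 37 (15 rose and 22 fell), in KO skin 18 (16 and 2), between genotypes under PBS 32 (8 and 24), after bleomycin 6 (6 and 0) and for the difference of responses 37, where 45.7%, 14%, 36.7%, 6.89% and 39.9% of all genes passed. With the hair list as a covariate it was 0 in WT skin and 8 in KO skin, where 0.0655% and 9.78% of all genes passed.

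**Figure D5:**
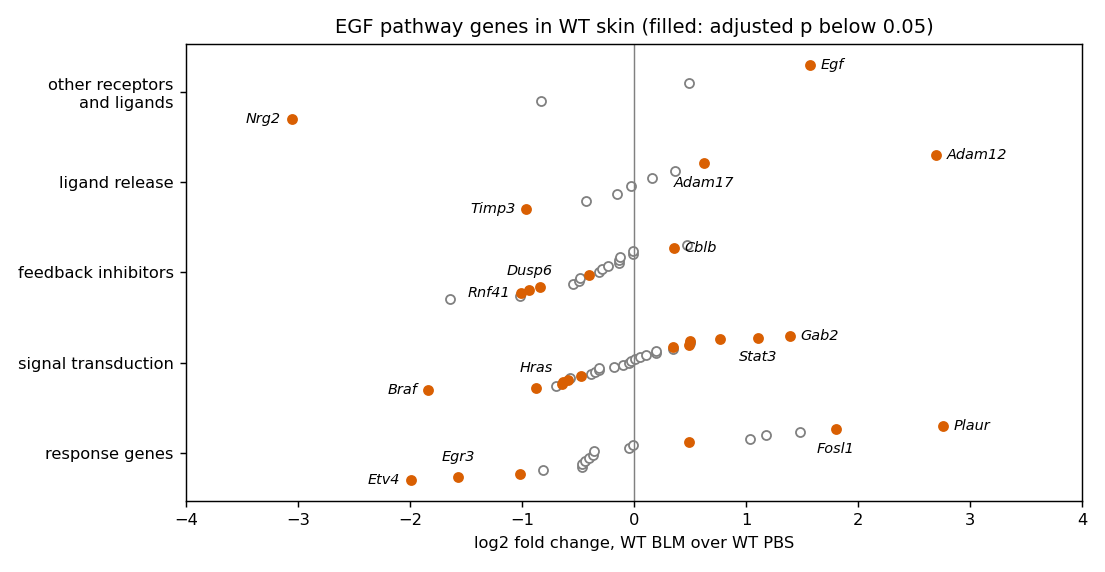
Log2 fold change of WT BLM over WT PBS (horizontal axis) for the 78 pathway genes tested, in rows by role, with filled points where the adjusted p was below 0.05. In each row filled points lie on both sides of 0, from Nrg2 at -3.06 to Plaur at 2.75.

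Of 4 other receptors and ligands tested, 1 rose and 1 fell. Egf, the founding ligand, went from 4.46 to 6.42 CPM in WT PBS to 9.61 to 21.0 CPM in WT BLM mice (log2 fold change 1.57, adjusted p = 0.0423 by edgeR). Nrg2, a neuregulin that binds ErbB3, went from 11.6 to 15.9 CPM to 1.49 to 2.002 CPM (-3.06, adjusted p = 0.00578 by edgeR). Both split the KO PBS mice, which had no bleomycin. Mouse 136 had 4.02 CPM of Egf and 10.04 of Nrg2, against 23.5 and 19.0 of Egf and 3.77 and 3.10 of Nrg2 in mice 137 and 139. Among 8 genes of ligand release 2 rose and 1 fell. Adam17, the main sheddase of Tgfa, Areg, Ereg, Epgn and Hbegf, went from 63.7 to 71.3 CPM to 102 to 110 CPM (0.62, adjusted p = 0.0128 by edgeR). Adam12, which can also cut Hbegf, rose by 2.69 (adjusted p = 0.0128), and Timp3, an inhibitor of Adam17, fell by 0.96 (adjusted p = 0.0360) in edgeR.

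Of 19 feedback inhibitors 1 rose and 4 fell. Cblb, a ubiquitin ligase of activated receptors, rose by 0.35 (adjusted p = 0.0313), while Rnf41, a ligase that lowers ErbB3, fell by 1.01 (adjusted p = 0.0201) and the ERK phosphatase Dusp6 by 0.94 (adjusted p = 0.0307) in edgeR. Dusp6 went from 77.9 to 94.5 CPM in WT PBS to 42.6 to 52.0 CPM in WT BLM mice. It was at 80.6 CPM in mouse 136 and at 39.1 and 34.8 CPM in the other KO PBS mice, so the split seen in Areg and Tgfa was seen here too. Of 29 genes of signal transduction 6 rose and 6 fell, with the adaptor Gab2 at 1.39 (adjusted p = 0.0128) and the transcription factor Stat3 at 1.10 (adjusted p = 0.00793) furthest up, and the kinase Braf at -1.84 (adjusted p = 0.0223) and the GTPase Hras at -0.87 (adjusted p = 0.0286) furthest down, by edgeR. The KO PBS mice 136, 137 and 139 were split in Gab2 (11.7, 30.5 and 33.5 CPM) and Braf (148, 37.0 and 50.0 CPM) as well.

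Of 18 genes that respond to the receptor 3 rose and 3 fell in WT skin. Plaur, the urokinase receptor, went from 3.92 to 4.77 CPM to 25.4 to 36.4 CPM (log2 fold change 2.75, adjusted p = 0.00329 by edgeR). The AP-1 subunit Fosl1 went from 1.58 to 2.70 CPM to 4.34 to 10.9 CPM (1.80, adjusted p = 0.0484 by edgeR). Other transcription factors fell, Etv4 with a log2 fold change of -1.99 (adjusted p = 0.00777) and Egr3 with -1.57 (adjusted p = 0.0177) by edgeR. In KO PBS mice 136, 137 and 139 Plaur was at 3.09, 7.66 and 5.07 CPM and Fosl1 at 2.33, 1.26 and 0.51 CPM, all below every WT BLM mouse. Macrophages also make Plaur. Their markers summed to 265 to 661 CPM over 9 genes in WT PBS and 1125 to 1875 CPM in WT BLM mice, with 7 of 9 rising and 0 markers at 0, and the part of this in the result was not tested.

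Pearson's correlation of log2 CPM over the 12 mice gave the genes most like each of the 9, as a description over mice that share groups and hair phase. Erbb2 and Erbb3 ran together (r = 0.92, and 0.95 for deviations from the group means), as did Areg and Epgn (r = 0.92 and 0.84). Areg and Tgfa had r = 0.80 and 0.90, and Egfr and Tgfa r = 0.84 and 0.80. Btc ran against Epgn (r = -0.75 and -0.52) and Areg (r = -0.70 and -0.51).

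Among all genes tested, Foxo1, Upf2 and Dach1 were most like Egfr (r = 0.99 for each), and Rnf222 and Tent5b were among the 3 most like Tgfa (r = 0.99 for both). For Tgfa 6.13% of all genes had an r above 0.9, for Egfr 2.58%, for Areg 2.08% and for the rest 0.0601% to 0.655%. How common values near 0.99 were was not counted. Esrp1 (r = 0.99), Samd10 and Lsr (r = 0.98 for both) were most like Erbb2, and Pard3 (r = 0.96), Gata3 (r = 0.94) and Mfn1 (r = 0.93) most like Erbb3. Riox1, Nifk (r = 0.98 for both) and Sertad1 (r = 0.97) led for Areg, and Cenpm (r = 0.96), Cdca3 and Fam98b (r = 0.95 for both) for Epgn. Slc19a2 (r = 0.96), Smap2 and Il1a (r = 0.93 for both) led for Ereg, and Psmd10 (r = 0.96), Prss27 (r = 0.95) and S100a8 (r = 0.94), a calcium-binding protein of neutrophils and injured keratinocytes, for Hbegf. Ahnak (r = 0.97), Atp2b4 and Ago4 (r = 0.95 for both) were most like Btc.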

How the data were processed

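RNA-Seq of skin from 12 mice was analysed. The authors made stranded mRNA libraries and deposited 1 table of counts per gene, whole numbers without normalization, for 55453 gene symbols. The submitters' processing notes name GRCm38.p6 and MultiQC 1.7, and the aligner, the counting tool and its use of strand are not given in the sources used here. Whether the mice of a group shared a litter or cage is not given in the sources used here, and p-values measure the spread between these mice.

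Totals ran from 26473700 to 38890450 counts. Genes were filtered by filterByExpr (minimum counts of 10 per library and 15 in total), scaled by TMM and fitted in edgeR 4.0.16 (R 4.3.3) with 4 group means over all 12 mice. Contrasts were tested by the quasi-likelihood F test with Benjamini-Hochberg adjustment over 18311 genes. Standard errors are the log2 fold change divided by the square root of F, and log2 CPM used a prior count of 2. CPM per kb used the union of exons in GENCODE M21. The steps were tested on simulated data. Alternatives were DESeq2 1.42.0, RLE and upper-quartile scaling, no filter, a filter at a mean CPM of 1, a model of the compared groups only, each mouse left out, mice 136 and 141 left out together, and the mean of the hair or basal keratinocyte list as a covariate. The pathway counts without those mice or with the hair list were added after seeing the data.

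The 9 genes, the pathway and cell type lists, and the alternatives were chosen with earlier results of these data known. From each pathway list the text names, of the genes past the threshold in WT skin, up to 2 with the highest and 2 with the lowest log2 fold change, and for each of the 9 genes the 3 with the highest correlation, model numbers left out. 1 of these is not reported here. Other cell type lists are not reported, apart from the first gene of those that bear on a result. Plots used Python 3.11.15 with matplotlib 3.10.9.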

Additional observations from a re-analysis of the deposited data

How the results depend on the processing

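Of 936 log2 fold changes of the 9 genes under the alternatives, 833 kept their direction and their side of the threshold, 53 newly passed, 17 no longer passed and 33 changed sign. The 833 include the values of Areg in DESeq2, which had no adjusted p and so kept only their direction. RLE or upper-quartile scaling, no filter and the filter at a mean of 1 CPM left 3 genes passing in WT skin, the same genes (Egfr, Tgfa and Epgn). The number passing was 3 in WT skin and 0 in the other 4 comparisons. Without mice 136 and 141 it became 6 in WT skin, 5 in KO skin, 6 between genotypes under PBS, 1 after bleomycin and 6 for the difference of responses. With the hair list as a covariate it was 0 in WT and 1 in KO skin, where 0.0655% and 9.78% of all genes passed. With DESeq2 it was 4 in WT skin (with Erbb2), 1 in KO skin, 1 between genotypes under PBS, 1 after bleomycin and 2 for the difference, and DESeq2 gave Areg no adjusted p. Of 34689 genes, DESeq2 passed 22.1%, 3.49%, 2.18%, 1.77% and 9.45% in the same order. Leaving out 1 mouse gave 1 to 5 in WT skin, 0 to 4 in KO skin, 0 to 4 under PBS, 0 to 2 after bleomycin and 0 to 5 for the difference, with the highest counts without mouse 136 in each. The model of only the compared groups was not run for the difference of responses, which needs all 4 groups.

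With the hair list as a covariate, signs changed for Areg (0.26) and Btc (-0.43) in WT skin, for Egfr (0.15), Erbb3 (0.026), Ereg (-0.28) and Tgfa (0.14) between genotypes under PBS, for Egfr (-0.21), Erbb3 (-0.10), Ereg (0.40), Hbegf (-0.075), Tgfa (-0.46) and Btc (0.25) after bleomycin, and for Egfr (-0.37), Erbb3 (-0.13), Ereg (0.68) and Tgfa (-0.60) in the difference of responses. With the basal keratinocyte list they changed for Erbb2 in KO skin (0.041) and for Ereg under PBS (-0.29) and in the difference (0.16). Without mice 136 and 141 they changed for Erbb2 (0.15) and Tgfa (0.34) in KO skin and for Egfr (-0.012), Erbb3 (-0.0026) and Ereg (0.079) after bleomycin. With 1 mouse left out, log2 fold changes that crossed 0 ran from -0.12 to 0.16 for Erbb2, -0.25 to 0.019 for Erbb3 and -0.84 to 0.80 for Tgfa in KO skin, from -0.14 to 0.36 for Erbb3, -0.50 to 0.15 for Ereg and -0.18 to 0.87 for Hbegf after bleomycin, and from -0.018 to 0.48 for Erbb3 in the difference. The cause of these changes was not tested. No paired analysis was possible because no number is shared between mice. With 3 mice per group and a spread between mice of 48.8% to 58.1% in Areg, Hbegf and Tgfa, a log2 fold change between groups of 1.93 (Areg after bleomycin) did not pass.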
